A study of Mus musculus with 4 samples.

Results

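The liver of 21 month-old mice was compared with that of 15 month-old mice, the last step in a series of 4 ages. The unit was the gene: 4514 of the 33924 gene symbols in the files had at least 20 counts summed over the pools of 15 and 21 months and were compared, and they held 95.3% and 95.6% of the counts on genes in these pools. Each age was represented by 1 library, made from pooled liver RNA of 24 male C57BL6 mice, C57BL/6Rj in the study's methods (4 animals at each of 6 times of day), with free access to food and water and a 12 h light and 12 h dark cycle. The pools of 3 and 9 months, made in the same way, are given beside some values. Both sides of the comparison were thus 1 pool, which averages over animals and over the day, so that no spread between animals could be measured and no p-value between ages is given. The libraries held 5’-ends of RNA that withstood a nuclease that degrades uncapped molecules, sequenced as reads of 35 bases.

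The liver supplies most plasma proteins, stores and converts fat, sugar and amino acids, and clears drugs and hormones, and the hepatocyte does most of this work. With age, livers are known to gain immune cells and to change in lipid metabolism, and male mice lose part of the sex-specific expression that pulses of growth hormone maintain. The defining markers of hepatocytes were abundant in both pools: the 15 listed markers, among them Alb (albumin, the main plasma protein), were all compared, 0 were called higher and 1 was called lower. Alb had 29404 and 47962 counts at 15 and 21 months and a ratio, defined below, of 1.18, and Ahsg (fetuin-A, a plasma carrier) 11136 and 16391 counts and a ratio of 1.06.

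For each gene the ratio of the 21 over the 15 month count was divided by 1.39, the ratio that a gene without change has after scaling with the trimmed mean of M-values (TMM). A gene was called higher or lower when this ratio was at least 1.5-fold away from 1 and its exact 95% counting interval (Clopper-Pearson) left out 1. Of all genes compared, 403 (8.93%) were called higher and 454 (10.1%) lower at 21 months. The ratios of the central 50% of genes lay between -0.47 and 0.43 on the log2 scale, around a median of -0.0026. A stricter rule, the whole interval beyond 1.5-fold, left 91 genes (2.02%) higher and 104 genes (2.3%) lower. The library total on genes was 525772 counts for 15 months and 735962 for 21 months, and all intervals cover counting error only. When the interval was widened by the dispersion of the 4 pools taken as 1 group (0.0669, a spread of 25.9%), 114 genes (2.53%) were still called higher and 156 genes (3.46%) lower. This last rule counts every age difference as spread, and the number of calls that survive it is given below for the main gene groups.

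Calls depended on depth. The share of genes called was 16.9% among genes with 20 to 29 summed counts, rose to 25.2% at 100 to 199 counts and was 10.1% among the 159 genes with at least 1000 counts. In the lowest class, 144 of 1269 genes were called lower and 70 higher, and the median log2 ratio was -0.12. The 176 genes with exactly 20 summed counts had a median log2 ratio of -0.18, and the 162 genes left out with 19 counts had a median of -0.01.

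**Figure D1:**
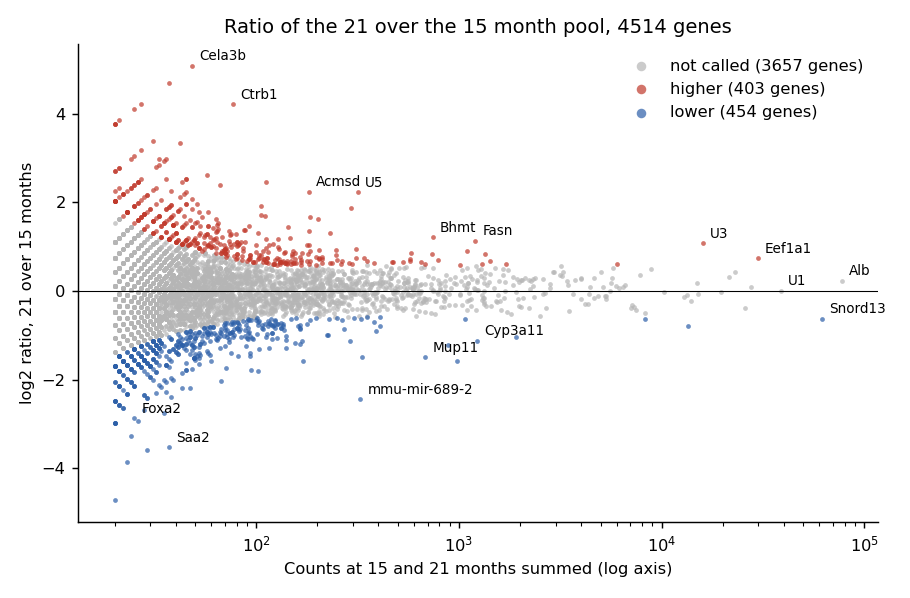
Log2 ratio of the 21 over the 15 month pool (vertical axis) against the counts of both pools summed (log axis) for 4514 genes, with genes at 0 counts at 15 months placed at the ratio that 3 counts would give. The 403 genes called higher are red, the 454 called lower are blue, and the spread narrows with depth.

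Small nucleolar RNAs (snoRNAs) were more often called lower than higher at 21 months. These short RNAs guide the chemical modification of ribosomal and spliceosomal RNA; the box C/D class directs methylation and carries a C box near its 5’-end and a D box near its 3’-end. Most are cut out of introns of host genes and carry no cap, whereas Snord13, Snord118 and U3 are made from promoters of their own and are capped. The sequences of 6 box C/D snoRNAs are shown because the results below turn on them. They were read from the NCBIM37 assembly (mm9) at the places given by the GENCODE M1 annotation. Snord16a (chr9:64023230-64023328, plus strand) and SNORD16 (chr9:64024468-64024566, plus strand) lie within Rpl4, Snord90 (chr2:37255567-37255677, minus strand) within Rc3h2, Snord72 (chr15:5068404-5068484, plus strand) within Rpl37, Snord49a (chr11:62416952-62417023, plus strand) within 2410006H16Rik and Snord70 (chr1:59748778-59748864, plus strand) within Nop58. Capitals mark the first TGATG in the first 30 bases (C box) and the last CTGA in the last 20 bases (D box). The first 3 were called higher and the last 3 lower at 21 months.
Snord16a: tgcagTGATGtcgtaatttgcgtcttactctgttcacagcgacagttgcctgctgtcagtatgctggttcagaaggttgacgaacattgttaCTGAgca
SNORD16: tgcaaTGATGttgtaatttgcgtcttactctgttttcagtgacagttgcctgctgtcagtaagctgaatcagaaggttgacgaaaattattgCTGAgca
Snord90: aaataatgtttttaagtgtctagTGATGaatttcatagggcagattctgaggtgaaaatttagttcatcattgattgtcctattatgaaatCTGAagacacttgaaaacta
Snord72: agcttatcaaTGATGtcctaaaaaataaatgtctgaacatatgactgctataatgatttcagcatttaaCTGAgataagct
Snord49a: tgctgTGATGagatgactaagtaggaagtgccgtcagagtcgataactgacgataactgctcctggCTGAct
Snord70: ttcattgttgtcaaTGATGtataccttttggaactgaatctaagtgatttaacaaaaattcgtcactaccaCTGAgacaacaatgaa

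Both boxes were found in 34 of the 36 box C/D snoRNAs that were compared and have 1 annotated place, and in 16 of the 17 of them that were called lower. The boxes were thus present in snoRNAs called in either direction and in uncalled ones. Snord16a and SNORD16, which lie in the same gene, were identical at 88 of 99 aligned bases (88.9%). Reads that fit both places equally well would have been left out as not unique.

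Of 67 snoRNAs compared, 26 (38.8%) were called lower at 21 months, beside 10.1% of all genes, and 7 (10.4%) were called higher, beside 8.93% of all genes. Their median log2 ratio was -0.42. Box C/D snoRNAs had a median of -0.47, with 21 of 43 called lower and 5 higher. Box H/ACA snoRNAs, which direct pseudouridylation, had a median of -0.27, with 5 of 21 called lower and 1 higher. With the widened interval, 9 snoRNAs stayed lower and 4 higher.

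Snord13, a capped snoRNA needed for acetylation of the small ribosomal subunit RNA, held the second highest count of all symbols over both pools summed, and the highest at 15 months. It had 33581, 50667, 32468 and 29272 counts at 3, 9, 15 and 21 months, in libraries of 955934, 958586, 525772 and 735962 counts on genes. Relative to these totals the 15 month pool was the highest, and the 21 month pool lay above the 3 month pool. With a ratio of 0.65 (95% counting interval 0.64 to 0.66), Snord13 was called lower at 21 months, but this call did not hold with the widened interval. All snoRNAs summed made up 95308 counts per 1000000 counts on genes (cpm) at 15 months and 65638 cpm at 21 months, a ratio of 0.695, and without Snord13 the ratio was 0.778. Snord118, the capped U8 RNA that takes part in ribosomal RNA maturation, fell from 72 to 47 counts (ratio 0.471, interval 0.319 to 0.689).

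Among snoRNAs cut from introns, Snord72 had 118.2 and 177.3 cpm at 3 and 9 months, 420.3 cpm at 15 months and 149.5 cpm at 21 months. The 15 month pool therefore held the highest level of the 4, and the ratio was 0.359 (interval 0.283 to 0.453). Snord49a was also highest at 15 months, with 531.4, 715.6, 1050 and 447.0 cpm, but lowest at 21 months, and had a ratio of 0.43 (0.374 to 0.493). The neighbouring Snord49b (ratio 0.618) and Snord65 (0.564), which share its host gene, were also called lower. Snord70 had 39, 15, 29 and 10 counts, a ratio of 0.249 (0.108 to 0.525), while its host Nop58 was below the minimum with 1 count at either age. Snora7a, an H/ACA snoRNA, fell from 1145 to 773 counts (ratio 0.487, 0.444 to 0.534).

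In the opposite direction, Snord16a had 305.5, 104.3, 91.29 and 332.9 cpm at the 4 ages, and its ratio of 21 over 15 months was 3.68 (interval 2.69 to 5.13). SNORD16 had 164.2, 85.54, 24.73 and 134.5 cpm, with a ratio of 5.49 (3.07 to 10.7). For both, the pools of 3 and 21 months were high and the pools between them low. Snord90 had 14, 2, 2 and 23 counts, and its ratio of 8.29 had a wide interval from 2.05 to 72.6.

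Most host genes were not called, and of all genes only 19% were called in either direction. A host gene with enough counts was found for 18 snoRNAs with 1 annotated place, and the 14 hosts had a median log2 ratio of -0.22. Of these hosts 1 was called higher and 2 lower, near the 8.93% and 10.1% of all genes. The 5 hosts of snoRNAs that were called lower are too few to set against these shares: 0 were called lower and 1 was called higher. That host is Rpl37, a ribosomal protein gene, with 5 counts at 15 months and 40 at 21 months (ratio 5.77, interval 2.28 to 18.7), while Snord72 within it fell. Rpl4 fell from 41 to 34 counts (ratio 0.598, 0.368 to 0.966) while both snoRNAs within it rose. Whether the digestion of uncapped RNA differed between the pools was not tested.

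**Figure D2:**
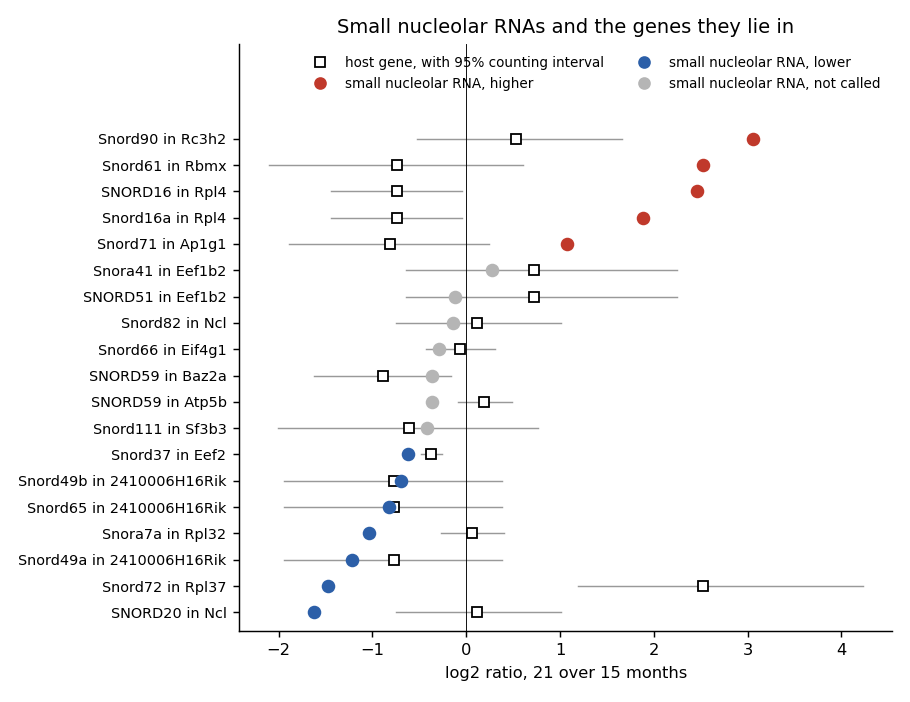
Log2 ratio of the 21 over the 15 month pool for 18 snoRNAs (filled circles; red higher, blue lower, grey not called) and for the gene each lies in (open squares with the 95% counting interval), 1 row per pair. Of the 14 hosts 1 is called higher and 2 lower (beside 8.93% and 10.1% of all genes), and Rpl37 lies on the opposite side of 0 to Snord72.

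Small RNAs with promoters of their own gave 3 of 8 capped U-class RNAs higher (37.5%, beside 8.93% of all genes) and 0 lower, and 2 remained higher with the widened interval. U3, a capped snoRNA of ribosomal RNA processing with 47 annotated places, rose 2.12-fold (4048 and 11891 counts, interval 2.04 to 2.2), but its level moved widely over the 4 ages, with 12670, 45830, 7699 and 16160 cpm. U5, a spliceosomal RNA with 10 annotated places, rose from 42 to 274 counts (ratio 4.7, 3.39 to 6.67). U1, the most counted spliceosomal RNA, had a ratio of 1 (interval 0.984 to 1.02). The gene copies of each symbol share sequence, so these values are uncertain. Of the 13 copies of 5S ribosomal RNA compared, 4 were called higher (beside 8.93% of all genes) and 0 lower (beside 10.1%). The copy with the most counts, n-R5s136, had 550 and 1165 counts (ratio 1.53, 1.38 to 1.69), and n-R5s211 had 1 and 26 counts (ratio 18.7, 3.08 to 769). The annotated microRNA mmu-mir-689-2 (chr16:11144218-11144274, plus strand) fell from 259 to 66 counts (ratio 0.184, 0.138 to 0.242), and its 492.6 cpm at 15 months stood above 119.3 and 170.0 cpm at 3 and 9 months.

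Digestive enzymes of the exocrine pancreas were among the genes with the highest ratios. Ctrb1 (chymotrypsinogen) had 26, 6, 0 and 77 counts at 3, 9, 15 and 21 months, which makes it at least 18.5-fold higher at 21 than at 15 months when the 0 is set to a floor of 3 counts per library; its exact interval begins lower, at 14.7. Cela3b, an elastase, had 13, 9, 1 and 47 counts, with a ratio of 33.9 and an interval from 5.79 to 1366. Cela2a had 18, 1, 0 and 20 counts and was at least 4.81-fold higher against the same floor, with an interval from 3.56 upwards; Casp9 overlaps it on the opposite strand. Cela1 rose from 9 to 28 counts (ratio 2.24, 1.03 to 5.4). All 4 listed enzymes with enough counts were called higher, beside 8.93% of all genes, and 3 stayed so with the widened interval. With 0 to 9 counts at 15 months, they reached the minimum mainly through the 21 month pool. The filter thus favoured higher calls among these enzymes, and the count of calls is description only. Of the 6 listed enzymes below the minimum, Prss2 had 0 and 14 counts, Pnlip 0 and 6, Cpb1 0 and 4 and Cpa1 0 and 1, while Amy2a5 and Try4 had 0 counts at both ages.

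Summed over the 10 listed enzymes, the level was 80.5, 34.4, 19.02 and 268 cpm at the 4 ages, and the summed ratio of 21 over 15 months was 14.2 (interval 7.56 to 30.1). The pools of 3 and 9 months also lay above the 15 month pool. The islet hormones Ins1, Ins2 and Gcg had 0 counts in all 4 pools. The 7 markers of skeletal muscle had 0 counts at 15 and 21 months, and so had 4 of the 5 markers of fat. In pooled tissue, more cells of a type and more RNA per cell cannot be told apart, nor can tissue taken along at dissection, which was not tested.

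**Figure D3:**
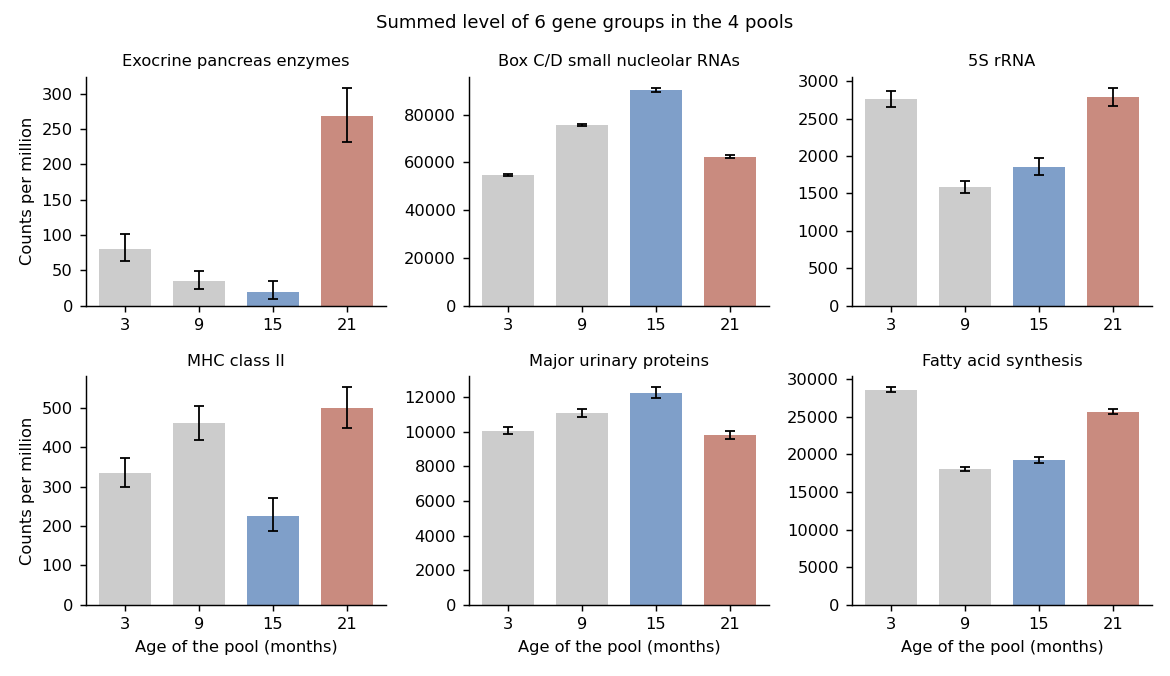
Summed level in cpm ( bars, exact 95% Poisson counting intervals) of 6 gene groups in the pools of 3, 9, 15 (blue) and 21 months (red). Exocrine pancreas enzymes are highest at 21 months, box C/D snoRNAs and major urinary proteins at 15 months, and MHC class II genes are lowest at 15 months.

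Genes of fatty acid and cholesterol synthesis were called higher in 25% of each list, beside 8.93% of all genes. Both pathways build lipids from acetyl-CoA and are switched on by the SREBP transcription factors, encoded by Srebf1 and Srebf2. Of 24 genes of fatty acid synthesis compared, 6 were called higher and 0 lower, with a median log2 ratio of 0.29. Fasn (fatty acid synthase) had 297 and 903 counts at 15 and 21 months, a ratio of 2.19 (interval 1.92 to 2.51). Its level of 931.0, 798.1, 564.9 and 1227 cpm at the 4 ages was lowest at 15 months. Thrsp, a regulator of lipogenesis, rose from 68 to 180 counts (ratio 1.91), and Srebf1 from 51 to 133 counts (1.88). Gpam, the first enzyme of triglyceride assembly, rose from 149 to 324 counts (1.57). Scd1, the desaturase with the most counts of the list, had 8035 and 15101 counts, and its ratio of 1.35 (1.32 to 1.39) was below the fold of a call. Only Fasn among the 6 kept its call with the widened interval.

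Of 24 genes of cholesterol synthesis and uptake compared, 6 were called higher and 1 lower, with a median log2 ratio of 0.23. Sqle (squalene epoxidase) had 8 and 36 counts (ratio 3.24, interval 1.48 to 8.08), and Fdft1 (squalene synthase) 19 and 69 counts (2.62, 1.56 to 4.61). These were the 2 genes that kept the call with the widened interval. Mvd rose from 10 to 38 counts (2.74) and Cyp51 from 44 to 106 counts (1.74). Hsd17b7, which acts late in the same pathway, fell from 44 to 32 counts (0.524). Summed over the list, the level was 3070, 2804, 2592 and 2923 cpm at the 4 ages, so that the 15 month pool was the lowest.

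As these genes were called higher together and the reads mark transcript 5’-ends, the 200 bases before the start are shown for 3 of them. They come from the RefSeq promoter table of assembly GRCm38.p6: Mvd at chr8:122443423-122443622, Cyp51 at chr5:4104698-4104897 and Fasn at chr11:120824548-120824747, all on the minus strand. Capitals mark ATTGG or, on the other strand, CCAAT, the box bound by NF-Y, a factor known to act beside SREBP. A pair of matches on opposite strands overlaps in Fasn.
Mvd: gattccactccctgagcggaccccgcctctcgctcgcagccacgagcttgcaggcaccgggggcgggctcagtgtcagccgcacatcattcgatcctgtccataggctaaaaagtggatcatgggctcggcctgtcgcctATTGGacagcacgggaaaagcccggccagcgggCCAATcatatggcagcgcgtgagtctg
Cyp51: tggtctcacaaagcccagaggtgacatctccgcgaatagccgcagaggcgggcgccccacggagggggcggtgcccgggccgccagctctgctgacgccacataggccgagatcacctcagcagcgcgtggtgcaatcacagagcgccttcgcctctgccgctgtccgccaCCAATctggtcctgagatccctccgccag
Fasn: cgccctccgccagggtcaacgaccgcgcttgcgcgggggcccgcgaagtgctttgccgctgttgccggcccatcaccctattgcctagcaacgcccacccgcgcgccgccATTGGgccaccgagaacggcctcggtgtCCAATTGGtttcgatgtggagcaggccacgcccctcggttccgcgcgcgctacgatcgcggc

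In the 250 bases before the start, ATTGG was present on either strand in 12 of the 16 promoters (75%) found for 13 genes of cholesterol synthesis and in 13 of the 29 promoters (44.8%) found for 19 genes of fatty acid synthesis. The share was 33.8% among all 32851 promoters of the table and 35.6% among those of the genes compared. It was also present for Ebp (ratio 1.06), which was not called, and for Hsd17b7, which was called lower. No promoter was found for the other cholesterol genes, Sqle and Fdft1 among them. Whether ATTGG separates called from uncalled genes was not tested. TCACNCCAC, the 1 form of the sterol regulatory element that was searched, was found on either strand in 0 of the 16 and 1 of the 29 promoters. Its share among all promoters was 1.05%. Other forms were not searched, so these counts do not show that the promoters lack such elements.

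Enzymes of amino acid and glucose metabolism were called higher in part, with 0 lower calls in the 3 lists. In the methionine cycle and one-carbon metabolism, 6 of 20 genes (30%, beside 8.93% of all genes) were called higher and 0 lower, with a median log2 ratio of 0.33. Bhmt, which remakes methionine from homocysteine with betaine, had 176 and 567 counts (ratio 2.32, interval 1.96 to 2.77) and kept its call with the widened interval. Bhmt2 rose from 18 to 61 counts (2.44), Ahcy from 21 to 61 (2.09) and Cth, which makes cysteine, from 85 to 227 (1.92). For Bhmt, the 15 month pool had 334.7 cpm and the others between 752.1 and 815.8 cpm, so that it stood apart at 15 rather than at 21 months.

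In the breakdown of aromatic amino acids and histidine, 4 of 23 genes (17.4%, beside 8.93% of all genes) were called higher and 0 lower, with a median of 0.28. Acmsd, which diverts tryptophan breakdown away from NAD synthesis, had 24 counts at 15 months and 157 at 21 months, a ratio of 4.72 (interval 3.06 to 7.58). Its 213.3 cpm at 21 months exceeded the levels of 58.58, 92.85 and 45.65 cpm at 3, 9 and 15 months. Qdpr, which recycles the cofactor of phenylalanine hydroxylase, rose from 35 to 111 counts (2.29) and Uroc1, of histidine breakdown, from 327 to 686 (1.51). Agxt, the 4th gene called, rose from 17 to 57 counts (2.42). It was counted in this list but acts on glyoxylate rather than in these pathways. Acmsd and Qdpr kept their calls with the widened interval.

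In glucose production and use, 4 of 26 genes (15.4%, beside 8.93% of all genes) were called higher and 0 lower, with a median of 0.29, and 0 calls remained with the widened interval. Pklr, the liver pyruvate kinase, rose from 46 to 132 counts (ratio 2.07, interval 1.47 to 2.96). Gapdh, a glycolytic enzyme with 437 and 855 counts (ratio 1.41, 1.26 to 1.59), lay just under the fold of a call. Of 21 nuclear receptors compared, 2 (9.52%) were called higher and 4 (19%) lower, beside 8.93% and 10.1% of all genes. With the widened interval 0 higher and 1 lower calls remained. Nr1h3, the oxysterol sensor LXR alpha, was called higher with 77, 73, 21 and 60 counts at the 4 ages (2.06, 1.24 to 3.57).

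Genes of MHC class II, whose products present peptides to T helper cells, were called higher at 21 months. H2-Aa had 40 and 143 counts (ratio 2.58, interval 1.8 to 3.76), H2-Eb1 20 and 60 counts (2.16, 1.29 to 3.79), and Cd74, the invariant chain, 47 and 134 counts (2.05, 1.46 to 2.93). All 3 class II genes with enough counts were called higher, beside 8.93% of all genes, and H2-Aa kept its call with the widened interval. Below the minimum, H2-Ab1 had 5 and 11 counts, H2-Oa 2 and 12, H2-DMa 5 and 5, and H2-DMb1 and Ciita 0 and 1 each. The 8 class II genes summed to 334, 461, 226 and 499 cpm at the 4 ages, so that the 15 month pool was the lowest. Of 9 class I genes compared, 1 was called higher and 0 lower, beside 8.93% and 10.1% of all genes. The gene called was Tapbp, which loads peptide and rose from 58 to 123 counts (1.53). B2m, the light chain of class I, had a ratio of 1.28 (1.22 to 1.34).

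The 200 bases before the start of H2-Aa (chr17:34287824-34288023, minus strand) and H2-Eb1 (chr17:34305667-34305866, plus strand) are shown from the same RefSeq table, because class II promoters are known to share an X box and a Y box, the latter again ATTGG. Capitals mark ATTGG or CCAAT and, in H2-Eb1, the 1 form of the X box searched (GCAAC, any base, G, any base, TG). This form was found on either strand in 0.691% of all promoters. It was not matched in H2-Aa, where other forms of the X box were not searched. No promoter was matched for Cd74.
H2-Aa: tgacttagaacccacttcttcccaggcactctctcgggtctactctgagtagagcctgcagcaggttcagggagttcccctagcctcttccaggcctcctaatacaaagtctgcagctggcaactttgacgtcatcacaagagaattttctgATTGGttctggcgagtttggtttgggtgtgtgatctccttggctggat
H2-Eb1: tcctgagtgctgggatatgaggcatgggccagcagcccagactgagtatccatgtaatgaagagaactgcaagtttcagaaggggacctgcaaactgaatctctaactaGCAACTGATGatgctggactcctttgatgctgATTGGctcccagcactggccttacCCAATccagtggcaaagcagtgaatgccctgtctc

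Interferon response genes had a median log2 ratio of 0.45, with 4 of 17 called higher (23.5%, beside 8.93% of all genes) and 0 lower. Irgm1, a GTPase of cell-autonomous defence, had 13 and 44 counts (ratio 2.44, interval 1.29 to 4.94), and Bst2 64 and 146 counts (1.64, 1.22 to 2.24). Ifitm3, with more counts, had a ratio of 1.41 (1.27 to 1.56), and 0 calls of the list remained with the widened interval.

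Markers of immune cells moved with these genes in part. Of 22 markers of B and plasma cells 14 were in the files and summed to 25 and 70 counts (ratio 2.02, interval 1.26 to 3.33), with 9 of them at 0 counts at 15 months. The 25 markers of T and NK cells summed to 11 and 37 counts (2.42, 1.21 to 5.27), with 18 at 0 counts at 15 months. Of 25 markers of Kupffer cells and macrophages 24 were in the files and summed to 762 and 1176 counts (1.11, 1.01 to 1.22). Of 19 compared, 3 were called higher (15.8%, beside 8.93% of all genes) and 2 lower (10.5%, beside 10.1%). With the widened interval 0 calls of these markers remained. Among them C1qc (35 and 94 counts, ratio 1.94) and Emr1, the macrophage antigen F4/80 (39 and 98 counts, 1.81), rose, and Timd4, a marker of resident Kupffer cells (34 and 25 counts, 0.53), and Folr2 (22 and 12 counts, 0.393) fell. The Kupffer cell markers Clec4f (1.08, 0.786 to 1.48) and Cd5l (1.02, 0.856 to 1.21) were not called. The chemokine Ccl9 rose from 30 to 113 counts (2.72, 1.8 to 4.21). What part the number of immune cells had in the class II values was not tested.

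The major urinary proteins, pheromone carriers made by the male liver under growth hormone, had a median log2 ratio of -0.93, with 5 of 10 called lower (50%, beside 10.1% of all genes) and 0 higher, and 4 remained lower with the widened interval. Mup11 had 698.8, 718.8, 865.4 and 305.7 cpm at the 4 ages, and its ratio of 21 over 15 months was 0.356 (interval 0.302 to 0.419). Mup17 fell from 67 to 27 counts (0.291) and Mup10 from 116 to 54 (0.336). Mup3 (3713 and 3809 counts, 0.74) was not called and Mup7 (1487 and 2514 counts, 1.22) lay on the other side of 1. These genes are near-identical copies, so that the split of reads among them is uncertain; summed over the list the ratio was 0.808 (0.781 to 0.835).

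In the growth hormone and IGF axis, 3 of 16 genes (18.8%) were called higher and 3 (18.8%) lower, beside 8.93% and 10.1% of all genes, and 1 higher and 0 lower calls remained with the widened interval. Igf1, the main growth factor of this axis, had 780 and 1336 counts (ratio 1.24, interval 1.13 to 1.35) and was not called, whereas Igfals, which holds IGF1 in the circulation, fell from 70 to 58 counts (0.597). Stat5b, which carries the growth hormone signal, rose from 12 to 35 counts (2.1), and Irs2, an insulin receptor substrate, had 3 and 19 counts (4.57, 1.34 to 24.1).

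Among drug-metabolising enzymes, Cyp3a11, the main cytochrome P450 of its family in mouse liver, had 1518, 1336, 1419 and 646.8 cpm at the 4 ages. The first 3 pools were alike and the 21 month pool low, with a ratio of 21 over 15 months of 0.46 (interval 0.409 to 0.517) that kept its call with the widened interval. It was the only hepatocyte marker called. The cytochrome P450 list as a whole had 4 of 31 genes called higher (12.9%) and 3 lower (9.68%), near the 8.93% and 10.1% of all genes, and Cyp2e1, with 8264 and 11353 counts, had a ratio of 0.99 (0.963 to 1.02).

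Acute phase proteins, which the liver releases in inflammation, gave 4 of 24 genes lower (16.7%, beside 10.1% of all genes) and 1 higher (4.17%, beside 8.93%), and 1 call in each direction remained with the widened interval. Saa2 (serum amyloid A) had 4, 11, 33 and 4 counts at the 4 ages, so that it was high at 15 months alone, and its ratio of 21 over 15 months was 0.0874 (interval 0.0225 to 0.246). Saa1 fell from 28 to 17 counts (0.438), Orm2 from 61 to 47 (0.556) and Lcn2 from 32 to 23 (0.518). Mt2, a metallothionein, rose from 13 to 48 counts (2.66), but its 279 counts at 9 months exceeded both. The abundant Fgb (0.98, 0.942 to 1.02) and Fga (1.07, 1.02 to 1.13) were not called.

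Genes of endoplasmic reticulum stress and protein folding had a median log2 ratio of -0.27, with 4 of 20 called lower (20%, beside 10.1% of all genes) and 0 higher. Pdia4, a folding enzyme, fell from 57 to 38 counts (ratio 0.481, interval 0.31 to 0.737), Dnajc3 from 50 to 34 (0.49), Syvn1 from 45 to 35 (0.561) and Sdf2l1 from 16 to 8 (0.36). Hspa5, the central chaperone BiP, had 502 and 593 counts and a ratio of 0.852 (0.755 to 0.961), short of a call, and 0 calls of the list remained with the widened interval.

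Transcription factors of the hepatocyte gave 2 of 22 genes higher (9.09%, near the 8.93% of all genes) and 4 lower (18.2%, beside 10.1%), of which 2 and 1 remained with the widened interval. Foxa2, a pioneer factor of liver genes, fell from 21 to 4 counts (ratio 0.137, interval 0.0343 to 0.407), while its paralog Foxa1 rose from 8 to 43 counts (3.87, 1.8 to 9.54). Cebpa fell from 76 to 51 counts (0.484), and Foxo3 rose from 11 to 42 counts (2.75). Hnf4a, the factor that maintains the hepatocyte state, had 204 and 291 counts and a ratio of 1.03 (0.857 to 1.24). Among nuclear receptors, Rara, the retinoic acid receptor, fell from 23 to 5 counts (0.157, 0.0465 to 0.421) and Nr5a2 from 26 to 14 counts (0.388).

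**Figure D4:**
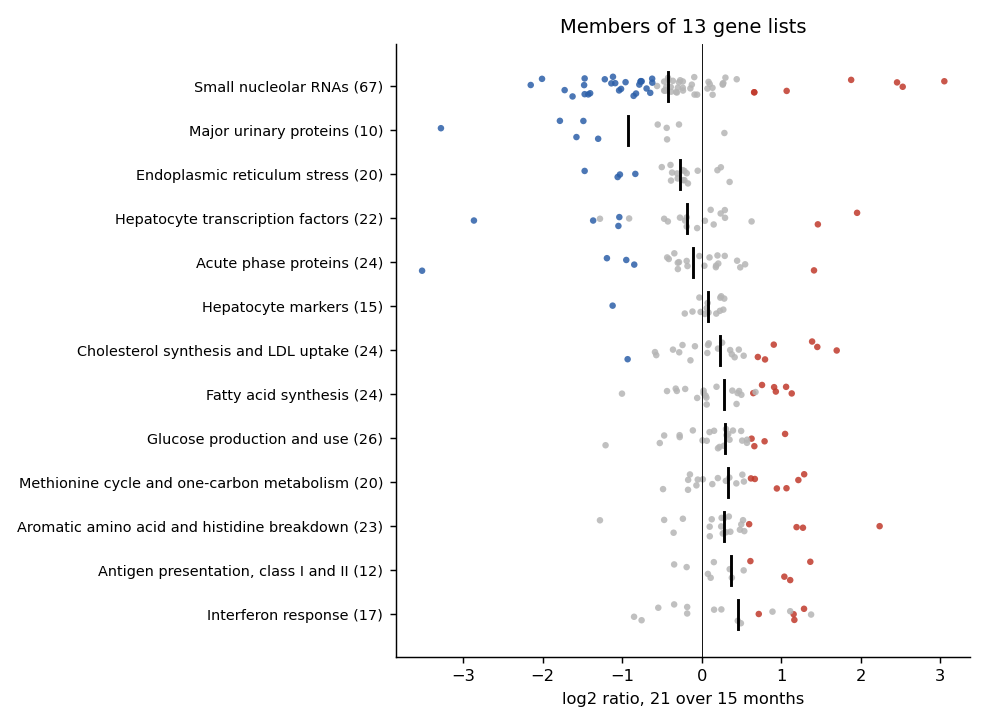
Log2 ratio of the 21 over the 15 month pool for the members of 13 gene lists (points; red higher, blue lower, grey not called; number of genes compared in brackets), with the median as a black bar. SnoRNAs and major urinary proteins lie mostly left of 0, and the lipid, amino acid and antigen presentation lists have their medians to its right.

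Markers of other cell types of the liver gave few calls. Sinusoidal endothelial markers gave 1 of 20 genes higher (5%, beside 8.93% of all genes) and 1 lower (5%, beside 10.1%). Cholangiocyte markers gave 0 of 6 in either direction. Of 14 stellate cell markers, 3 were called lower (21.4%, beside 10.1% of all genes; 1 with the widened interval) and 0 higher: Col1a2, a collagen chain, fell from 46 to 31 counts (ratio 0.486), Cygb from 21 to 9 (0.309) and Pdgfra from 16 to 7 (0.315). All 3 had fewer counts at 3 and 9 months than at 15 months despite deeper libraries. The more abundant Ecm1 (0.877, interval 0.726 to 1.06) and Dcn (0.975, 0.792 to 1.2) were not called. Haemoglobin Hbb-b1 had a ratio of 0.744 (0.664 to 0.834), while Alas2, the erythroid enzyme of heme synthesis, rose from 32 to 82 counts (1.85). The periportal and pericentral hepatocyte markers had medians of 0.11 and 0.06.

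Large housekeeping groups had medians near 0. Cytosolic ribosomal proteins had a median log2 ratio of 0.05. Of 42 genes, 7 were called higher (16.7%, beside 8.93% of all genes) and 5 lower (11.9%, beside 10.1%). With the widened interval 2 and 1 of these calls remained. Rpl36 rose from 38 to 163 counts (ratio 3.09, interval 2.16 to 4.53) and Rplp1 fell from 45 to 28 (0.449). Eef1a1, the elongation factor that brings tRNA to the ribosome, had 8990 and 20819 counts (1.67, 1.63 to 1.71), whereas Eef2, its partner in elongation, had 1296 and 1389 counts (0.773, 0.716 to 0.834). Nuclear-encoded genes of the respiratory chain had a median of 0.04. Of 70 genes, 4 were called higher (5.71%, beside 8.93% of all genes) and 9 lower (12.9%, beside 10.1%), of which 2 and 3 remained. Proteasome subunits had 2 of 26 genes (7.69%) in each direction, near the shares of all genes.

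The study looked for genes that stay stable with age. It judged them by the variance of centered log-ratios (each gene against the geometric mean of all) over the 4 ages, and by Nanostring and published data. A 1.5-fold call between 2 pools is another measure. The 16 candidates were all compared here. Of these, 14 were not called, and Sirt2, a deacetylase, with 89 and 71 counts (ratio 0.575, interval 0.415 to 0.795) and Tspo, a mitochondrial transporter, with 42 and 35 counts (0.601, 0.372 to 0.964) were called lower. The share called lower, 12.5%, was near the 10.1% of all genes, and neither call held with the widened interval. Both genes are in the study's final marker set: Sirt2 passed all of its assessments and Tspo all but 1. The candidate with the most counts, Ttr (transthyretin), had 5834 and 9187 counts and a ratio of 1.14 (1.1 to 1.17). Of 10 core clock genes compared, 3 were called lower (30%, beside 10.1% of all genes) and 0 higher (beside 8.93%). With the widened interval 1 lower call remained. Of the same 10 genes, 6 had ratios above 1, and the median log2 ratio was 0.13. Clock itself fell from 16 to 5 counts (0.225, 0.0646 to 0.644) and Nr1d2 from 15 to 7 (0.336), and Nr1d1 had a ratio of 1.03 (0.814 to 1.32). The pools combine all times of day, so that rhythms are averaged out.

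Beyond these groups, the genes with the intervals farthest from 1 had few counts at 1 of the ages. Mrpl1, a mitochondrial ribosomal protein, had 0 and 21 counts and was at least 5.05-fold higher against the floor of 3 counts, with an interval from 3.75 upwards. Tmem170b had 1 and 36 counts (ratio 25.9, interval 4.37 to 1053), Acad10, of fatty acid breakdown, 2 and 29 counts (10.4, 2.64 to 90.4) and Palld, an actin-binding protein, 6 and 51 counts (6.13, 2.63 to 17.5). Among lower genes, Taf12, a subunit of the general factor TFIID, had 19 counts and 1 count (0.0379, 0.000913 to 0.239), and the zinc finger gene Zfp445 21 and 2 counts (0.0687, 0.0078 to 0.281). Sema6d (29 and 6 counts, 0.149) and Erlin2 (22 and 4 counts, 0.131) followed. Hes7, a transcriptional repressor with many counts, had 666 at 15 months and 311 at 21 months (0.337, 0.293 to 0.386), after 219 and 573 counts at 3 and 9 months. A noncoding gene on the opposite strand overlaps it, and reads of both could not be told apart if strand was ignored in counting.

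**Figure D5:**
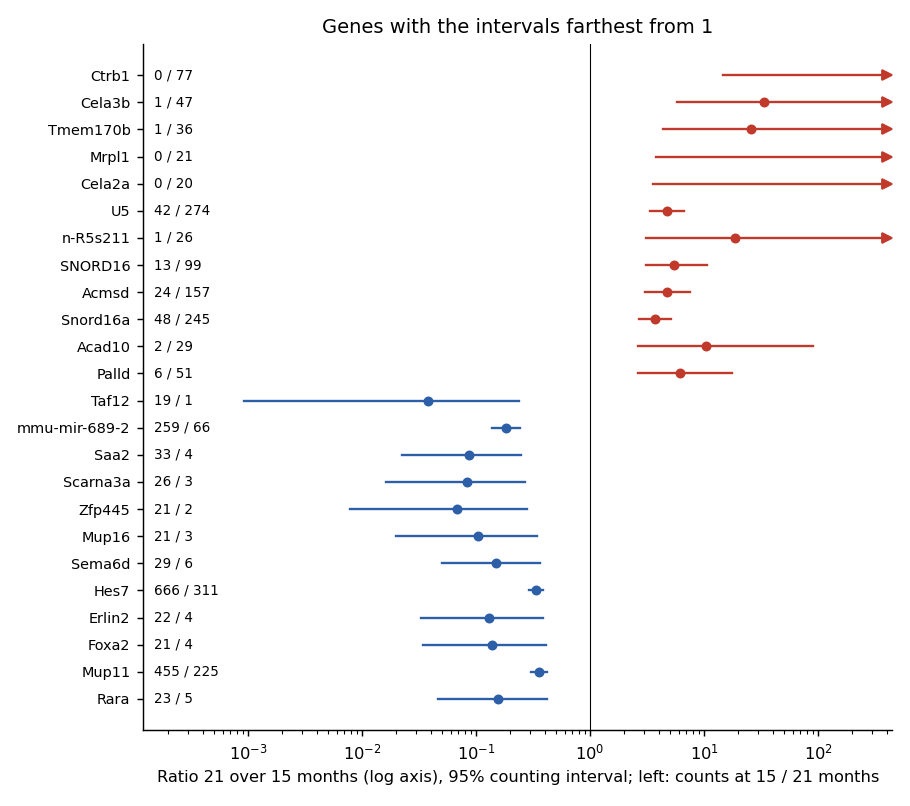
Ratio of the 21 over the 15 month pool (log axis) with its 95% counting interval for the 12 genes with the highest lower bound (red) and the 12 with the lowest upper bound (blue), with the counts at 15 and 21 months at the left. Arrows run past the axis, no point is drawn for the 3 genes with 0 counts at 15 months, and intervals are narrow for the few genes with many counts such as U5, Hes7 and Mup11.

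The number of calls was like that of the other steps of age. Of 5613 genes compared between 3 and 9 months 21.3% were called (10.5% higher and 10.8% lower), and of 4900 genes between 9 and 15 months 18.4% (9.78% higher and 8.63% lower), beside 19% here. With all pools thinned to the 525772 counts of the 15 month pool, the shares were 16.5%, 16.7% and 17.9%. The step from 9 to 15 months shares the 15 month pool with the comparison, so that a gene far off at 15 months alone enters both with opposite signs. For this reason its values are given side by side only. SnoRNAs had a median log2 ratio of 0.47 from 9 to 15 months (26 of 69 higher and 2 lower) and of 0.03 from 3 to 9 months. Genes of the breakdown of aromatic amino acids and histidine had a median of -0.53 from 9 to 15 months (10 of 24 lower) and of 0.13 from 3 to 9 months. Interferon response genes had -0.56 and -0.11, the methionine cycle -0.50 and 0.11, and fatty acid synthesis -0.05 and -0.11. The major urinary proteins had 0.15 and 0.33.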

How the data were processed

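The authors mapped 35-base reads of 5’-ends (SOLiD, 4 bar-coded libraries on 1 lane) to mm9, and deposited counts of reads per gene symbol without normalisation; the labels name HTSeq, whose version and strand setting are not given in the sources used here. Reads on genes were 6.67% to 8.42% of all records, and records without a gene (15.5% to 19.0%) or not unique (72.2% to 76.7%) were left out of totals and ratios. From these counts, TMM scaling (edgeR 4.0.16 in R 4.3.3), ratios, exact 95% Clopper-Pearson intervals and calls were computed in Python 3.11.15 with scipy 1.17.1. A count of 0 allows up to 3 counts. With 1 pool on either side, the comparison of 21 with 15 months has no residual degrees of freedom. The calculation was checked on simulated counts with known changes. Places came from GENCODE M1, which held all but 1 of the symbols. Alternatives were 4 other scalings (DESeq2 1.42.0 size factors among them), other minimum counts, folds and intervals, the dispersion of the 4 pools, thinning and protein-coding genes.

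The comparison, the 60 gene lists and their members were chosen with earlier results of these data known. The lists of box C/D and H/ACA snoRNAs, class I and II genes, pancreas enzymes and 5S copies are divisions of them made afterwards. Genes named are the 12 with the highest lower and the 12 with the lowest upper bound of the interval, clone names left out, up to 4 called and 2 uncalled genes per list, cell type markers, the study's candidates and the 5 with the most counts. The genes Snord49a, Snord49b, Snord65, Snord70, Snord118, Snora7a, Rpl4, Hsd17b7, Cela1 and the pancreas enzymes below the minimum were named after their values had been seen. Some genes that the rule names are not reported here.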

Additional observations from a re-analysis of the deposited data

How the results depend on the processing

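Among the 403 genes called higher and 454 called lower, the 4 other scalings moved the counts only to between 397 and 443 higher and between 412 and 460 lower, and shifted all log2 ratios by at most 0.03. Genes with at least 10 summed counts gave 617 higher and 635 lower, all genes with a count 721 and 810, and a minimum of 50 counts 209 and 197. A 2-fold call gave 263 higher and 331 lower, the 99% interval 233 and 267, the interval wholly beyond 1.5-fold 91 and 104, and the widened interval 114 and 156. Of 162 called genes that are named by rule and had counts in both pools, 95 lost the call with the widened interval, at most 2 with another scaling and 0 with a pseudocount of 0.5, and 0 changed direction. Thinning the 21 month pool to the 15 month total left 346.5 genes called higher at 21 months and 364 genes called lower at 21 months (median of 20 draws, separate from those behind the shares by step of age), and leaving out symbols with several places or an overlapping gene on the same strand, an alternative added after the data were seen, left 339 and 369. Of 58 list medians, 15 changed sign under at least 1 alternative, among them ribosomal proteins, cytochrome P450, U-class RNAs, p53 targets and cholangiocyte markers, and the medians of snoRNAs, urinary proteins, lipid and amino acid enzymes, interferon and antigen presentation kept their sign under all of them. No paired analysis was possible because each age has 1 pool. Differences between animals could not be separated from differences between ages.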

Other observations

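2210010C04Rik had 4, 5, 0 and 33 counts at 3, 9, 15 and 21 months and was at least 7.93-fold higher at 21 than at 15 months against the floor of 3 counts, with an exact interval from 6.1 upwards. The noncoding gene Gm17475 had 20, 42, 0 and 42 counts, so that it was listed at 0 in the 15 month pool alone, and was at least 10.1-fold higher against that floor, with an interval from 7.85 upwards. Both carry clone names, which the rule for named genes leaves out, and were singled out after their values had been seen; together with Ctrb1, Cela2a and Mrpl1 they are the 5 compared genes with 0 counts at 15 months, while 0 compared genes had 0 counts at 21 months. Among keratins of simple epithelia, which hepatocytes make, Krt8 rose from 16 to 52 counts (ratio 2.34) and Krt18 from 31 to 97 counts (2.26). The p53 gene itself, Trp53, had 19, 32, 3 and 17 counts at the 4 ages (ratio 4.09, interval 1.18 to 21.8). Its target Trp53inp1 had 23, 25, 5 and 29 counts (4.18, 1.6 to 13.8). They were the 2 genes called higher of 8 compared in the list of p53 targets (25%, beside 8.93% of all genes). With the widened interval 1 of these calls remained. Summed over all 27 members of the list, the ratio was 0.995 (0.81 to 1.23).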
